A study of Rattus norvegicus with 9 samples.

Results

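The comparison of hypertensive with normal kidney covers 6 of the 9 RNA sequencing libraries of the series, 3 from kidneys labelled Model (treatment label: Hypertension) and 3 from kidneys labelled WT (treatment label: Normal), all taken at 6 weeks of age. The other 3 libraries came from hypertensive animals given Qingda granule (QDG), a Chinese herbal preparation. They were not compared here, but entered the filter on low values, the scalings and the mean from which length trends were read. They also entered the estimate of the spread between libraries. Of the 17862 features in the files, the 12187 whose FPKM averaged 1 or more across all 9 libraries were compared. FPKM is a read or fragment count divided by feature length and library size. The sources used here do not give the strain, how hypertension arose, or whether each library stands for its own animal. The p-values measure the spread among all 9 libraries, QDG included, unless a fit to 6 is named. That spread may be technical, and hypertension cannot be told apart from any other difference between the groups.

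The kidney is made of nephrons, each a filter followed by a tubule whose segments differ in the genes they use. The proximal tubule reclaims most of what is filtered and burns fatty acids for energy, the thick ascending limb and distal tubule take up salt, and the collecting duct sets the final loss of salt and water under hormonal control. Which of these segments the features below belong to was not analysed here. The files list features by identifier only, 17553 of them with Ensembl's mouse gene prefix and 309 with a label that marks them as new, while the labels name the brown rat. A table of 47357 rat genes was at hand, with no Ensembl identifier for any of them, so no identifier was paired with a gene name. For the same reason 35 lists of nephron segment, cell type and pathway genes, written in symbols, matched 0 features, and the tissue label was not checked against marker genes. In bulk tissue, fewer cells of a type and less RNA per cell cannot be told apart.

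Kidneys of the Model group differed from WT kidneys in 963 features, or 7.9% of those tested, with 732 higher and 231 lower (6.01% and 1.9%; limma, adjusted p under 0.05). A fit to the 6 WT and Model libraries alone called 144. The features that rose did so by a median log2 difference of 0.641 and those that fell by a median of −0.583, while the median over all tested features was 0.0198. A difference of 2-fold or more was reached by 121 of them, 88 higher and 33 lower. In every one of the 963 the 3 Model values lay on one side of the 3 WT values. Such separation was far more common than a call, since it held for 28.2% of all tested features (2114 or 17.3% higher and 1326 or 10.9% lower in Model), and 28% of the separated features were called. The gap between the nearest libraries of the groups had a median of 0.306 on the log2(FPKM + 1) scale among features that rose and 0.278 among those that fell.

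The feature with the largest rise was ENSMUSG00000067144, whose level was 6.32, 4.56 and 5.61 FPKM in the WT libraries and 61.7, 43.85 and 63.0 FPKM in the Model libraries, for replicates 1, 2 and 3. The groups lay far apart, and the Model library with the lowest value still stood well above each WT library. The means were 5.50 ± 0.886 FPKM (SD, n = 3) in WT and 56.2 ± 10.7 FPKM (SD, n = 3) in Model. The log2 difference was 3.13 with a standard error of 0.26 (limma adjusted p = 0.000752), and it was 2.98 after the length trend of each library was removed (limma adjusted p = 0.000584).

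ENSMUSG00000027239 had the next largest rise among the features that held under every scaling and length adjustment described below. Its WT libraries stood at 7.55, 6.86 and 16.9 FPKM and its Model libraries at 53.0, 39.0 and 55.9 FPKM. WT 3 was the highest of its group but remained below all Model libraries. The log2 difference was 2.22 with a standard error of 0.27 (limma adjusted p = 0.0054), and 2.01 after removal of the length trend (limma adjusted p = 0.00914). The values rest on 239 to 704 reads in the WT libraries and 1551 to 2017 in the Model libraries.

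ENSMUSG00000027875 had the largest fall of the features with an Ensembl identifier on the log2(FPKM + 1) scale. It stood at 282, 300.5 and 357 FPKM in the WT libraries and 12.9, 20.04 and 90.9 FPKM in the Model libraries. All Model libraries were low, but Model 3 kept several times the level of the other two. The log2 difference was −3.39 with a standard error of 0.53 (limma adjusted p = 0.0112), and −3.46 after removal of the length trend (limma adjusted p = 0.014). Without Model 3 the log2 difference was −4.19.

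ENSMUSG00000090171 also fell, from 5.63, 19.1 and 17.0 FPKM in the WT libraries to 0.613, 0.829 and 0.708 FPKM in the Model libraries. Here the spread lay in WT, where WT 1 was the low library, and the Model libraries were alike. The log2 difference was −2.96 with a standard error of 0.33 (limma adjusted p = 0.00356), and −3.10 after removal of the length trend (limma adjusted p = 0.00609). Only 39 to 55 reads per library stood behind the Model values. Those values lay below the 1 FPKM added before the log, which makes the fall look smaller than it is. With 0.1 added in place of 1, the log2 difference was −3.93, against −3.44 for ENSMUSG00000027875, so the order of the 2 falls depended on this setting. Each of these 4 features was called in the same direction under all 21 alternatives planned for this comparison.

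**Figure D1:**
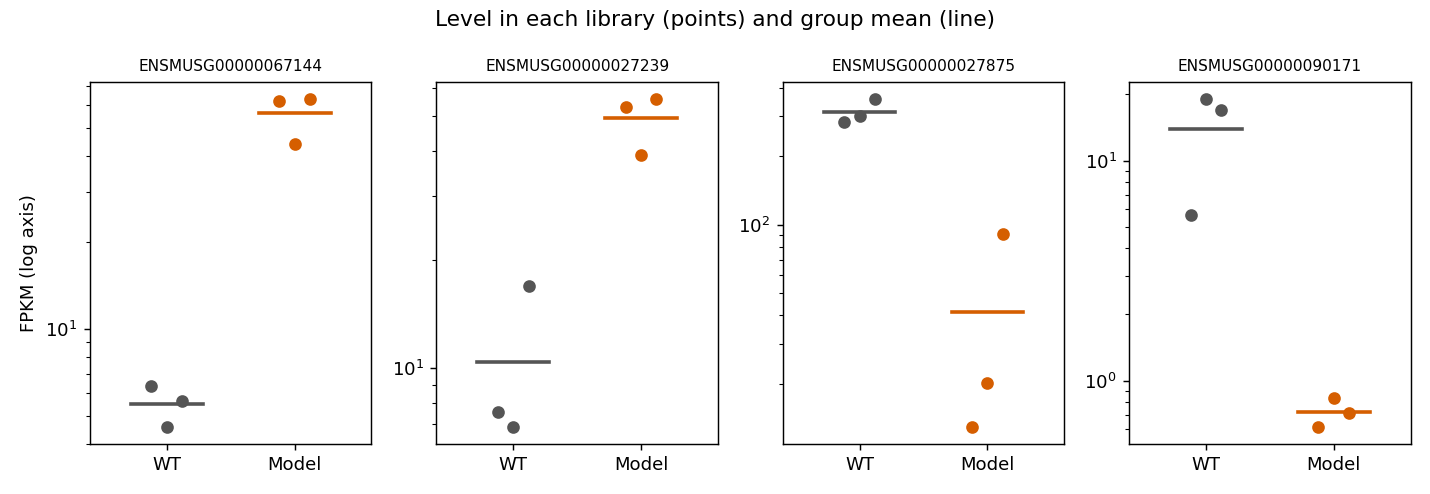
FPKM on a log axis of 4 features in each of 3 WT and 3 Model libraries (points), with the mean of each group as a line. The groups do not overlap for any of the 4, and Model 3 stands apart from the other Model libraries for ENSMUSG00000027875, at 90.9 FPKM against 12.9 and 20.04.

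Model kidneys differed from WT kidneys also in a way that followed the length of the features. Short features tended to be higher in Model and long ones lower. The median log2 difference was 0.20 for the 510 features under 500 bases, 0.21 for the 679 of 500 to 1000 bases, 0.20 for the 1537 of 1000 to 2000 bases and 0.08 for the 3584 of 2000 to 4000 bases. It was 0 for the 2623 features of 4000 to 6000 bases, −0.08 for the 2312 of 6000 to 10000 bases and −0.17 for the 942 of 10000 bases and over. Length and log2 difference had a Spearman's rho of −0.35. This describes features measured in the same 9 libraries, and features are not independent replicates.

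The length trend differed from library to library and was not equal within a group. Relative to the mean of the 9 libraries, features under 1000 bases had a median deviation of 0.28 in Model 3, 0.12 in Model 2 and 0.08 in Model 1. The WT libraries stood at 0.03 (WT 1), −0.18 (WT 2) and −0.06 (WT 3). Model 3 and WT 2 were thus the libraries at the 2 ends, and all Model libraries lay above all WT libraries. Features of 6000 bases and over deviated by −0.11 in Model 3 and 0.14 in WT 2. Between them lay Model 2 (−0.06), WT 1 (−0.02), Model 1 (−0.01) and WT 3 (0), so the groups overlapped for long features. The part of this trend in the calls is given next, and what sets it in a library was not tested.

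**Figure D2:**
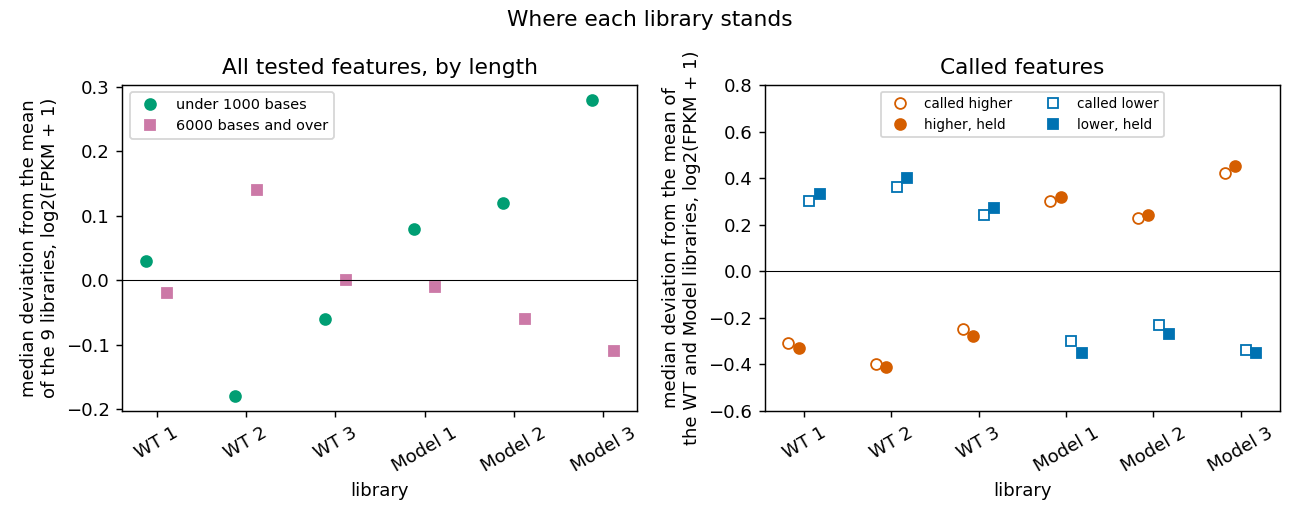
Median deviation on the log2(FPKM + 1) scale in each WT and Model library, for all tested features under 1000 bases and of 6000 bases and over (left, from the mean of the 9 libraries) and for called features with the part that held (right, from the mean of the 6 libraries shown). Model 3 and WT 2 lie farthest apart on the left, at 0.28 and −0.18 for short features. The features on the right were chosen by this same difference.

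Whether each call held was examined by repeating the fit after median-ratio scaling of the libraries, after removal of the trend over length in each library, and after both. Scaling alone kept 944 of the 963 calls (715 higher and 229 lower) and added none. The deposited values already carried a scaling of this kind, with log2 size factors of 0.002 to 0.017 left in the 9 libraries. Removal of the length trend gave 760 calls, or 6.24% of tested features. It kept 595 of the earlier calls (423 higher and 172 lower), and it added 165 that the deposited values did not give (53 higher and 112 lower). No feature was called the opposite way. The same 595 were called after both steps, so they are the features whose change held under all 3 adjustments (4.88% of tested features).

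The part that held was 61.8% of the called features, 57.8% of those higher and 74.5% of those lower. Among the held features 71.1% were higher in Model, against 76% of all called features and 62.6% of all features called after removal of the length trend (476 higher and 284 lower). Median-ratio scaling over the tested features alone, in place of all features, gave 67.6% higher (629 and 302). The median log2 difference over all tested features was 0.0198 in the deposited values and −0.00786 under that scaling.

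Which calls held depended on length, which follows from the adjustment itself. Removal of the trend took the median log2 difference from 0.20 to −0.03 under 500 bases. At 10000 bases and over it went from −0.17 to −0.01. Among features under 500 bases 23 of 54 higher calls held and 14 of 15 lower calls. At 500 to 1000 bases 31 of 84 higher calls held and 12 of 12 lower calls, and at 1000 to 2000 bases 74 of 183 and 16 of 16. At 2000 to 4000 bases 163 of 271 higher calls and 55 of 55 lower calls held. The pattern turned with length. At 4000 to 6000 bases 80 of 87 higher and 41 of 48 lower calls held, at 6000 to 10000 bases 47 of 48 and 31 of 56, and at 10000 bases and over 5 of 5 and 3 of 29. The share of features called fell with length before the adjustment, from 13.5% under 500 bases to 3.61% at 10000 bases and over, and still after it, from 9.41% to 2.34%.

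**Figure D3:**
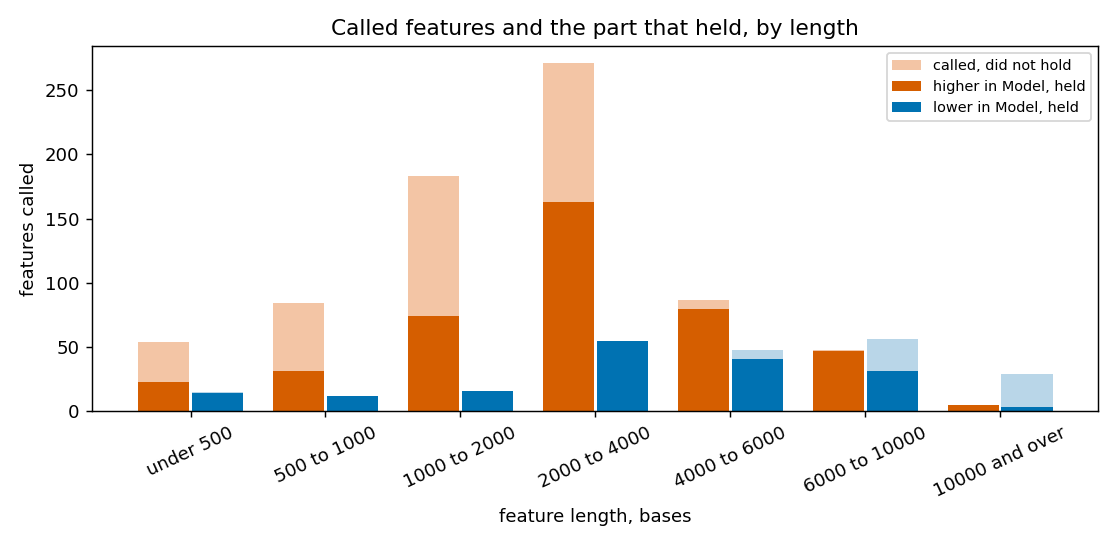
Number of features called higher (orange) and lower (blue) in Model against WT by feature length in bases. The dark part of each bar held after scaling and removal of the length trend, and the pale part did not. Most pale features are short and higher, as in the class of 1000 to 2000 bases where 74 of 183 held, or long and lower, as at 10000 bases and over where 3 of 29 held. The adjustment lowers the differences of short features and raises those of long ones, so this pattern follows from it.

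The 309 higher features whose call did not hold had a median length of 1580 bases and a median log2 difference of 0.596, which was 0.435 after removal of the length trend. The 59 lower features whose call did not hold had a median length of 9290 bases, with median differences of −0.47 and −0.369. Their direction was unchanged and their adjusted p no longer passed, while some differences stayed large (up to 2.22 after the adjustment). Held features had median lengths of 3040 bases (higher) and 3590 bases (lower), against 3860 bases over all tested features. Their median log2 differences were 0.689 and −0.663 in the deposited values and 0.588 and −0.731 after the adjustment.

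**Figure D4:**
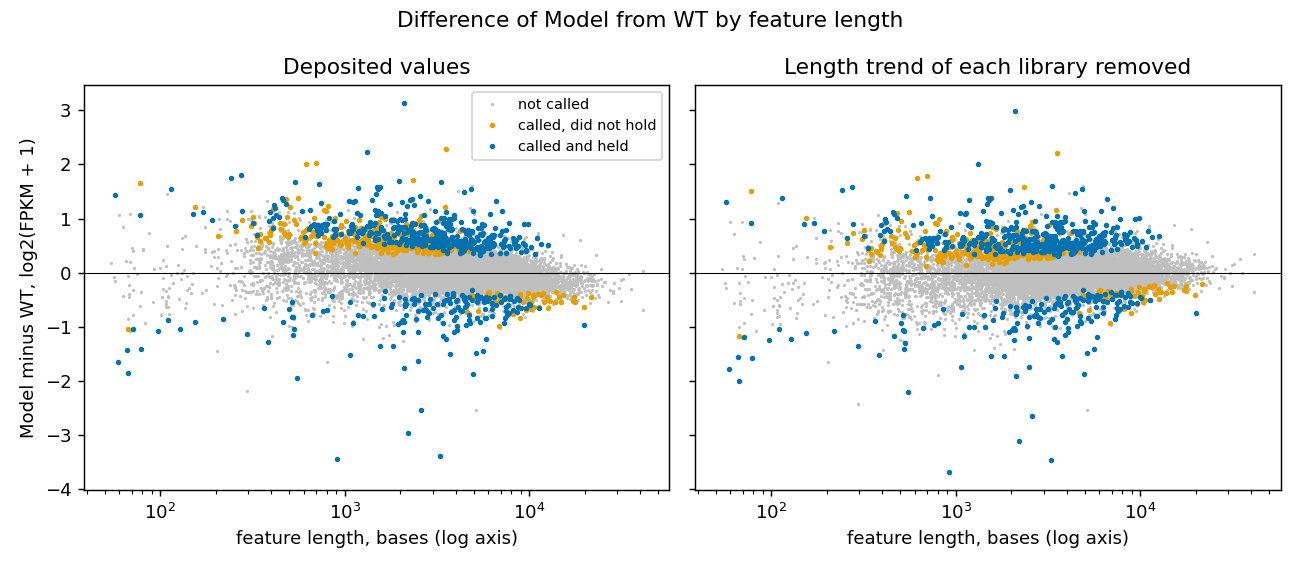
Log2 difference of Model from WT, on the log2(FPKM + 1) scale, against feature length in bases (log axis), in the deposited values (left) and after the length trend of each library was removed (right). Grey points were not called, orange points were called but did not hold and blue points held. The cloud slopes down on the left, with a Spearman's rho of −0.35, and is level on the right, at 0.02.

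Abundant features were called more often than scarce ones, mostly as higher. At 100 to 1000 FPKM 18.3% of 508 features were called, and 40 of 75 higher and 17 of 18 lower calls held. Calls at 20 to 100 FPKM made up 12.7% of 1854 features, and 131 of 215 higher and 18 of 21 lower calls held. Of the 4276 features at 5 to 20 FPKM, 170 of 274 higher and 52 of 66 lower calls held, and of the 5521 at 1 to 5 FPKM, 80 of 163 and 84 of 125. Adding 1 before the log makes the changes of scarce features look smaller than they are.

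The 28 features that averaged 1000 FPKM or more held 35.7% to 45.9% of the summed FPKM in the WT libraries and 34.5% to 38.1% in the Model libraries. Among them 5 were called higher and 1 lower, and 2 of the higher and the lower one held. Features without an Ensembl identifier numbered 213 among those tested, and 10 were called higher and 10 lower (9.39%, against 7.88% of features with an identifier). All 10 that were lower held and 4 of the 10 that were higher. The difference between these rates was not tested.

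The largest changes were examined as a group. The 15 largest rises among called features lay between 1.58 and 3.13 on the log2 scale, with lengths of 78 to 3560 bases (median 1324) and a median level of 16.2 FPKM. All 15 were also called by voom, limma's model for counts, on recovered reads with median-ratio scaling, and 10 of the 15 held after removal of the length trend. The 5 others lay at 1.66 to 2.28 before and 1.51 to 2.22 after it, with limma adjusted p of 0.0576 to 0.081, so the lost calls were still large differences. The 15 largest falls lay between −3.44 and −1.42, with lengths of 59 to 5643 bases (median 2211) and a median level of 19.8 FPKM. All 15 held and 14 were called by voom. Of the 121 features that changed by 2-fold or more, 99 held, 67 of 88 higher and 32 of 33 lower.

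The number of calls moved with single libraries. A fit without Model 3 called 195 features, one without WT 2 called 240 and one without Model 1 called 294, while one without WT 3 called 1529. With the length trend removed, the fit without Model 1 called the fewest, at 108, against 176 without Model 3 and 209 without WT 2. Among the features called higher, the WT value nearest to the Model group lay in WT 3 for 354 of 732, in WT 1 for 236 and in WT 2 for 142. The Model value nearest to WT lay in Model 2 for 418, in Model 1 for 221 and in Model 3 for 93. The called features, set against their mean in the 6 libraries, had a median deviation of −0.31 (WT 1), −0.40 (WT 2), −0.25 (WT 3), 0.30 (Model 1), 0.23 (Model 2) and 0.42 (Model 3) among those higher. It was 0.30, 0.36, 0.24, −0.30, −0.23 and −0.34 in the same order among those lower. WT 3 and Model 2 were thus the libraries nearest to the other group in both directions.

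A smaller group was called whichever library was left out. In each of the 9 fits that left out 1 library, 137 features were called in the same direction (107 higher and 30 lower), or 14.2% of the 963, and all 137 also held after scaling and removal of the length trend in the fit to all 9 libraries. When the scaling and length adjustments were repeated in each fit that left out 1 library, 72 features (45 higher and 27 lower) were called and held every time. Among the 137, the higher features had a median log2 difference of 0.866 and a median level of 16.2 FPKM. The lower ones had a median difference of −1.16 and a median level of 14.3 FPKM. The gap between the nearest libraries of the groups had a median of 0.592 among the higher and 0.726 among the lower of the 137. Of these, 110 (82 higher and 28 lower) were also called by voom on recovered reads with median-ratio scaling and in a fit to the 6 libraries alone. The 4 features described above were among the 137 and also among the 72.

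The fit to the 6 WT and Model libraries alone called 144 features (102 higher and 42 lower), 143 of them among the 963, and 63 of these held after scaling and removal of the length trend (32 higher and 31 lower). Over all tested features, the spread within groups had a median SD of 0.186 in WT, 0.146 in Model and 0.0928 in QDG. These values are on the log2(FPKM + 1) scale. The fit to all 9 libraries thus pooled in QDG, whose spread was smaller than that of the groups compared. For the median feature, the 95% interval reached 0.292 to either side of the log2 difference with all 9 libraries and 0.338 with 6. These intervals are not adjusted for the number of features, and at the same spread a call took a larger difference.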

How the data were processed

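The members and lists were chosen with earlier results of these data known. The authors deposited 1 value per feature and library from ribosomal RNA-depleted total RNA, per the labels' protocols. The unit is not written in the files and was taken to be FPKM from the steps of the values. Of tools, limma alone is named in the submitters' processing notes. The sources used here do not name the aligner, genome build or annotation.

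Whole reads and lengths were recovered for 17862 of 17862 features (100%), giving 26.7 M to 29.4 M reads (M, 1e6) per library. The tolerance was 0.0001 read, and wider in proportion to the count for large counts. The divisor implied for each library, 26.2 M to 31.4 M, was 0.938 to 1.11 times its recovered reads. Divided by a median-ratio size factor, it was 28.0 M to 28.3 M in every library, so the deposited FPKM carry about that scaling.

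Values were transformed as log2(FPKM + 1). The main limma model (3.58.1, R 4.3.3) held all 9 libraries and a trend of the variance with level. Its p-values are two-sided, with Benjamini-Hochberg adjustment over 12187 features. Length trends were removed per library with lowess (span 0.3) of its deviation from the mean of the 9 libraries over log2 length. The procedure was tested on simulated data. Alternatives were another pseudocount, other filters, scalings, voom, a replicate block, 6 libraries and each library left out.

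The rule for naming features asked for a gene symbol. Without symbols, the 2 largest rises and falls with an Ensembl identifier were given, among called features that did not overlap between groups and held. Read counts of same-group libraries differed by more than counting noise (chi-square per degree of freedom of 11.9 to 67.9).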

Additional observations from a re-analysis of the deposited data

How the results depend on the processing

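Model against WT called 963 features and 595 held after scaling and removal of the length trend. With only the 6 WT and Model libraries 144 were called and 63 held, and an added 2-fold limit left 121 calls. Fits that left out 1 library called 195 (Model 3 left out) to 1529 (WT 3). The number was 413 for WT 1, 240 for WT 2, 294 for Model 1, 626 for QDG 1, 399 for QDG 2 and 561 for QDG 3. In these fits 96 (Model 1 left out) to 1191 (WT 3) features held, with 164 for WT 1, 173 for WT 2, 140 for Model 3, 327 for QDG 1, 189 for QDG 2 and 340 for QDG 3. With the replicate number as a block (replicate block) 533 were called (424 higher and 109 lower) and 209 held. Deviations of same-numbered WT and Model libraries correlated at −0.33, −0.29 and −0.03. Those of WT and Model libraries with different numbers correlated at −0.13 (WT 3 and Model 1) to 0.43 (WT 2 and Model 1). Whether libraries with the same number were handled together was not tested.

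Removal of the length trend, which was planned, gave 760 calls. The next fits were chosen after seeing the data. With the trend removed the calls numbered 75 in the fit to 6 libraries, 256 with the replicate block, and 108 (Model 1 left out) to 1658 (WT 3) in fits that left out 1 library, with 193 for WT 1, 209 for WT 2, 176 for Model 3, 398 for QDG 1, 239 for QDG 2 and 426 for QDG 3. A lowess span of 0.7 left 600 held. Median-ratio scaling over the tested features gave 67.6% higher calls (629 and 302), and voom with that scaling of the recovered reads 61.1% (673 and 429).

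Of the planned settings, the deposited values gave 76% higher calls, quantile normalization 60.4% (431 and 283), removal of the length trend 62.6% (476 and 284), and voom 63.9% (500 and 283) with total scaling of the reads or 68.9% (760 and 343) with the median ratio over all features. The cause of these shifts was not tested. Counts over gene lists were not run, because no list matched a feature. Depth limits scarce features most, since 1 read over 1 kb is worth 0.0318 to 0.0382 FPKM.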
